A study of Mus musculus with 4 samples.

Results

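Voltage-gated sodium and calcium channels turn a change in membrane voltage into a sodium or calcium current. In these microarrays of the E18.5 mouse organ of Corti, 35 genes that code for their subunits were followed by gene name, out of 29924 gene names on the array: 12 sodium channel genes (Scn) and 23 calcium channel genes (Cacn). Cacna1d and Cacnb2, which code for the pore and the β subunit of the main calcium channel of the inner hair cell (IHC), were kept out of the set and are described beside it. Of the 35 genes, 28 had a brightest probe well above background on at least 3 of 4 arrays in either genotype and were tested, or 80.0%, against 70.8% of all gene names. None of the 28 passed the test between Sox2-Tbx2LOF and control.

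Each array compared a pool of Sox2-Tbx2LOF organs of Corti, of genotype Sox2(creERT2);Tbx2(fl/fl), with a pool from cre-negative control embryos labelled Tbx2(fl/n.d.), of the same sex and the same NMRI strain. All dams received 4 mg of tamoxifen by mouth in a single pulse at E16.5, with progesterone given in addition by the study's methods, so that mutants and controls share both treatments, and the basal part of the organ of Corti was taken at E18.5. The CreERT2 was expressed from Sox2, so that the deletion of Tbx2 was aimed at cells making SOX2, and each RNA sample came from several embryos. There were 4 Sox2-Tbx2LOF pools and 4 control pools on 4 arrays, female on arrays 1 and 2 and male on arrays 3 and 4. The Sox2-Tbx2LOF pool was labelled with Cy3 on arrays 1 and 3 and with Cy5 on arrays 2 and 4.

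The pore of a sodium channel is a single large α protein, and small β proteins tune its gating and anchor it. The pore of a calcium channel is an α1 protein, with a cytoplasmic β subunit, an extracellular α2δ subunit and, in some tissues, a γ subunit around it. In the cochlea, immature IHCs fire calcium action potentials, mature IHCs release transmitter through L-type calcium channels at ribbon synapses, and the neurons of the spiral ganglion carry the signal on with sodium channels.

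Every value below rests on a designed probe of 60 bases. The following 7 probes are printed because they define what "measured" and "not well above background" mean here. The brightest probes of Scn1a and Cacnb1 and a second probe of Scn8a gave signal, and the brightest probes of Scn7a, Cacna1b, Cacng1 and Cacng3 were not well above background on any array. Capitals mark the longest run of bases that the probe shares with a probe of another of the 35 genes.
Scn1a: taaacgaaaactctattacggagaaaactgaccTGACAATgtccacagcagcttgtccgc
Scn8a: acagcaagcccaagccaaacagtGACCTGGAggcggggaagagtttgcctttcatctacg
Cacnb1: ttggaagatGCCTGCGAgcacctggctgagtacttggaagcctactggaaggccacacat
Scn7a: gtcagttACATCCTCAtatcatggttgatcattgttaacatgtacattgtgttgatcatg
Cacna1b: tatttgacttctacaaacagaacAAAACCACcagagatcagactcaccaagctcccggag
Cacng1: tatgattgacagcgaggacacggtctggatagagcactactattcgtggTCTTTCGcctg
Cacng3: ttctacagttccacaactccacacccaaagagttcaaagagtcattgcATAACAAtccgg

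By the array's own annotation on build mm9, these probes lie at chr2:66111022-66111081 (minus strand) for Scn1a, chr15:100766904-100766963 (plus) for Scn8a and chr11:97866536-97866595 (minus) for Cacnb1. They lie at chr2:66514113-66514172 (minus) for Scn7a, chr2:24473205-24473264 (minus) for Cacna1b, chr11:107565096-107565155 (minus) for Cacng1 and chr7:129912275-129912334 (plus) for Cacng3. Each of the 7 has at least 1 reading frame without a stop codon. Across all 56 probes of the 35 genes, the longest run shared by probes of different genes was between 7 and 10 bases. The transcript named for the brightest probe was found in RefSeq (GRCm38.p6) for 33 of 35 genes, under the same symbol for 32 of them, and Scn2a1 is now Scn2a.

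The first question was whether loss of Tbx2 moved the transcript levels of these channels. A gene was called at a limma adjusted p under 0.05 and a change of at least 1.5-fold. No member was called (0 of 28), where 0.274% of all 21173 tested genes were. None passed the adjusted p alone either (0 of 28, against 1.12% of all tested genes), and none had an unadjusted p under 0.05 (0 of 28, against 7.74%). SAM, run on the same pools with the same minimum fold, also called 0 of the 28, against 0.236% of all tested genes. Levels of the 4 Sox2-Tbx2LOF and the 4 control pools did not separate for any of the 28 tested members, where they did for 2.74% of tested genes. In such bulk RNA, fewer cells of a type and less RNA per cell cannot be told apart.

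The mean log2 ratios of the 28 members, Sox2-Tbx2LOF over control, ran from −0.10 (Cacna1e) to 0.17 (Cacna2d2), with a median of 0.02. Over all tested genes the median ratio was 0.0019. Of the 28 mean ratios, 20 were above 0 and 8 below, and 26 lay within 0.1 of 0. The 95% interval of each member lay inside 1.5-fold in either direction (28 of 28, against 99.3% of all tested genes). Taken over the members, the intervals reached down to −0.25 for Scn3a, a fold of 0.843, and up to 0.33 for Cacna2d2, a fold of 1.26. These intervals hold gene by gene and were not widened for the number of genes. They are from the main processing, and for some dim members the ratio depended on it. With a normexp offset of 10, Scn9a had 0.08 in place of 0.06, and Cacna1e −0.13 in place of −0.10. By the scanner's own ratio, Scn9a had 0.14 and Cacna1e −0.14. Cacna1f and Scn4a, also dim, had smaller ratios by the scanner's own ratio (−0.02 and 0.0027) than in the main processing (−0.03 and 0.0078). With the offset of 10 theirs were larger (−0.04 and 0.0088). Cacna1s, dim as well, had 0.02 in the main processing, 0.03 with the offset of 10 and 0.06 by the scanner's own ratio. Whether the bound of 1.5-fold holds for dim members under such processing was not tested. The standard errors ran from 0.046 to 0.083 on the log2 scale. These, and each SE given below, are from limma after the dye term, with variances drawn towards those of all tested probes. They are not the spread of the 4 ratios of a gene alone, and the intervals rest on that shared variance. For Cacna1h the SE was 0.08, while its 4 ratios had an SD of 0.36 with the dye difference included.

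**Figure D1:**
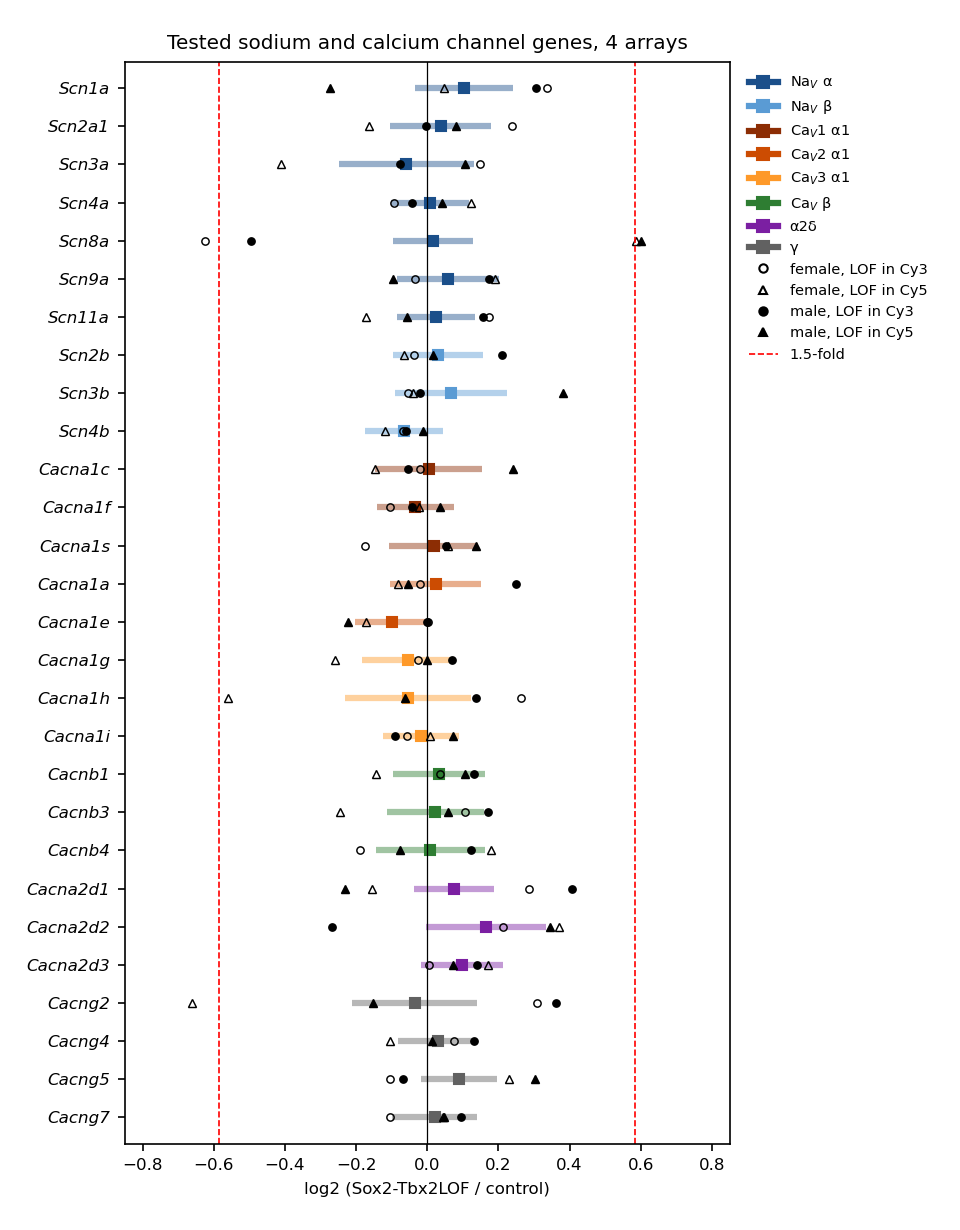
Log2 ratio of Sox2-Tbx2LOF over control (x axis) for the 28 tested members (y axis), with the mean as a square, its 95% interval from limma as a bar in the colour of the subunit class, and the 4 arrays as open (female) or filled (male) circles (Sox2-Tbx2LOF in Cy3) and triangles (in Cy5). Every bar lies between the dashed lines at 1.5-fold, while the single arrays of Scn8a lie from −0.63 to 0.60.

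Among the sodium channel α genes, which code for the pores, 7 of 9 were tested and their mean ratios lay between −0.06 and 0.10. The largest was that of Scn1a, a channel of neuronal axons. Its log2 channel level, the normalized brightness of a pool in its own dye, was 9.27, 9.18, 9.28 and 8.68 in the Sox2-Tbx2LOF pools of arrays 1 to 4. It was 8.94, 9.13, 8.97 and 8.95 in the control pools. The Sox2-Tbx2LOF pools of arrays 1, 2 and 3 were above all controls and the pool of array 4 was below all of them. The mean ratio was 0.10 ± 0.06 (SE, n = 4) with an adjusted p of 0.977 from limma. With single arrays left out it ran from 0.02 without array 2 to 0.18 without array 4 (adjusted p = 0.327).

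The mean log2 ratio was 0.04 for Scn2a1 and −0.06 for Scn3a, both of which code for channels of developing neurons. It was 0.02 for Scn8a, the channel of the nodes of Ranvier, and 0.01 for Scn4a, the channel of skeletal muscle. The Scn8a ratio came from its brightest probe, which had a dye split described below. The Scn8a probe printed above was dim, with levels of 6.86 to 7.04, and another was not well above background on any array. Whether the brightest probe measured Scn8a alone was not tested. Scn9a and Scn11a, known from sensory neurons of the pain pathway, had 0.06 and 0.02. The brightest probes of all 7 tested α genes were well above background on 4 of 4 arrays in both genotypes. Scn10a, another channel of those sensory neurons, was well above background on 2 arrays in either genotype and was not tested. Its levels were 6.49, 6.44, 6.51 and 6.45 in the Sox2-Tbx2LOF pools and 6.55, 6.62, 6.55 and 6.77 in the control pools. The groups did not overlap, with Sox2-Tbx2LOF lower on 4 of 4 arrays, at a brightness not well above background on the other 2. Scn7a, which codes for a sodium sensor in glia and other cells, was not well above background on any array. Its log2 levels lay between 5.92 and 6.08 over all 8 pools.

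The 3 sodium channel β genes of the set were tested, with mean ratios of 0.07 (Scn3b), 0.03 (Scn2b) and −0.06 (Scn4b). These small membrane proteins bind the α subunit and shape its gating. Scn3b levels were 14.12, 13.89, 13.96 and 13.73 in the Sox2-Tbx2LOF pools of arrays 1 to 4 and 14.17, 13.93, 13.98 and 13.35 in the control pools. The control pool of array 4 was the lowest of the 8, and the ratio there was 0.38, against −0.05, −0.04 and −0.02 on the other arrays. The mean was 0.07 ± 0.07 (SE, n = 4; adjusted p = 1.00 from limma). Scn4b was lower in Sox2-Tbx2LOF on 4 of 4 arrays, by at most 0.12 on the log2 scale. Together with Cacna2d3, which was higher on 4 of 4, it made 2 of 28 tested members with 1 sign on all arrays, or 7.14%, where 9.18% of all tested genes had it.

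The L-type calcium channel α1 genes of the set, Cacna1c of heart and smooth muscle, Cacna1f of the retina and Cacna1s of skeletal muscle, had mean ratios of 0.0047, −0.03 and 0.02. Levels of Cacna1f were 7.70, 7.68, 7.59 and 7.67 in the Sox2-Tbx2LOF pools and 7.80, 7.71, 7.63 and 7.63 in the control pools. The groups overlapped, and the ratio of −0.03 ± 0.05 (SE, n = 4) had an adjusted p of 1.00 from limma. This value comes from a probe for a cDNA clone, while the probe for the RefSeq transcript of Cacna1f was not tested.

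Cacna1d, the IHC channel kept out of the set, gave 11.08, 10.98, 11.27 and 11.04 in the Sox2-Tbx2LOF pools and 10.95, 11.12, 10.99 and 11.11 in the control pools. The ranges overlapped. Its mean ratio was 0.05 ± 0.05 (SE, n = 4; adjusted p = 1.00 from limma), with a 95% interval from −0.06 to 0.17. The IHC markers Slc17a8, the vesicular glutamate transporter, and Otof, the calcium sensor of IHC release, were lower in the same RNA at an adjusted p under 0.05. Their mean ratios were −0.66 (adjusted p = 2.9e-04) and −0.40 (adjusted p = 0.00985), and the study had itself picked Slc17a8 from these arrays. They are the only 2 of the 12 hair cell markers at an adjusted p under 0.05. Of the 12, 6 had ratios above 0 and 6 below, with a median of 0.01. Espn and Lhfpl5, genes of the hair bundle, had 0.21 (adjusted p = 0.223) and 0.16 (adjusted p = 0.262), higher on 4 of 4 arrays without overlap of the pools. In the other direction, Gfi1 had −0.24 (adjusted p = 0.0639 from limma), lower on 4 of 4 arrays with overlap of the pools, and Pcdh15 had −0.08.

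Of the genes for P/Q-type, N-type and R-type channels, which serve transmitter release and dendrites in neurons, Cacna1a and Cacna1e were tested and Cacna1b was not. Cacna1b was not well above background on any array, and its levels were between 6.14 and 6.26 over all 8 pools. Cacna1e had the lowest mean ratio of all members. Its levels were 7.65, 7.45, 7.55 and 7.43 in the Sox2-Tbx2LOF pools and 7.65, 7.62, 7.55 and 7.65 in the control pools. The ratios of arrays 1 and 3 were at 0.0026 and −0.00069, and on arrays 2 and 4 the Sox2-Tbx2LOF pool was lower (−0.17 and −0.22). The mean was −0.10 ± 0.05 (SE, n = 4; adjusted p = 0.788 from limma). Cacna1a had 0.02.

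The T-type genes Cacna1g, Cacna1h and Cacna1i, which code for low-voltage-activated channels that appear early in many developing cells, had mean ratios of −0.05, −0.06 and −0.02. Cacna1h levels were 13.94, 13.36, 13.52 and 13.47 in the Sox2-Tbx2LOF pools and 13.68, 13.92, 13.38 and 13.54 in the control pools. The groups overlapped fully, and the ratio by array went from −0.56 to 0.26. The mean of −0.06 ± 0.08 (SE, n = 4) had an adjusted p of 1.00 from limma. Both other tested Cacna1h probes had mean ratios of −0.02 and 0.02. They were far dimmer than the brightest, with levels of 7.6 to 8.0 and 6.9 to 7.0.

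The calcium channel β genes code for cytoplasmic subunits that bring the α1 protein to the membrane. Cacnb1, Cacnb3 and Cacnb4 were tested, with mean ratios of 0.03, 0.02 and 0.01. Cacnb1 levels, from the probe printed above, were 9.34, 9.07, 9.33 and 9.28 in the Sox2-Tbx2LOF pools and 9.30, 9.21, 9.20 and 9.17 in the control pools. Array 2 was the only array on which the Sox2-Tbx2LOF pool was lower, and the ranges overlapped (0.03 ± 0.06, SE, n = 4; adjusted p = 1.00 from limma). Cacnb2, the β gene kept out of the set, had levels of 9.35, 9.55, 9.61 and 9.42 against 9.29, 9.43, 9.55 and 9.40. Its Sox2-Tbx2LOF pool was the higher one on each array, by at most 0.13, and the mean ratio was 0.06 ± 0.05 (SE, n = 4; adjusted p = 1.00 from limma).

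The α2δ genes code for extracellular subunits that raise the number of channels at the membrane. Cacna2d1, Cacna2d2 and Cacna2d3 were tested, and all 3 mean ratios were above 0 (0.08, 0.17 and 0.10), with none past the test. Cacna2d2, which codes for the α2δ subunit that serves calcium currents of IHCs, had the largest ratio and the smallest p of all members. Its levels were 13.48, 13.52, 13.23 and 13.48 in the Sox2-Tbx2LOF pools and 13.27, 13.15, 13.50 and 13.13 in the control pools. On arrays 1, 2 and 4 the Sox2-Tbx2LOF pool was higher, and on array 3 it was lower. The mean ratio was 0.17 ± 0.07 (SE, n = 4; adjusted p = 0.729 from limma), with a 95% interval from −0.0040 to 0.33. It rested on single arrays, being 0.05 without array 1 and 0.29 without array 3 (adjusted p = 0.107). The other tested probe of Cacna2d2 had a mean ratio of 0.04.

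Cacna2d3, whose product is needed for normal auditory nerve responses, had 12.66, 12.90, 12.96 and 12.91 in the Sox2-Tbx2LOF pools and 12.66, 12.73, 12.82 and 12.84 in the control pools. Pools of the groups overlapped, and the mean ratio was 0.10 ± 0.05 (SE, n = 4; adjusted p = 0.872 from limma). Cacna2d4, known from the retina, was well above background on 1 array in Sox2-Tbx2LOF and on 2 in control and was not tested.

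The γ genes code for membrane proteins of which Cacng1 belongs to the calcium channel of skeletal muscle, while Cacng2, Cacng3, Cacng4, Cacng5, Cacng7 and Cacng8 are best known as auxiliary subunits of AMPA-type glutamate receptors. Of the 7 genes, 4 were tested, with mean ratios of 0.09 (Cacng5), 0.03 (Cacng4), 0.02 (Cacng7) and −0.04 (Cacng2). The Cacng7 value came from a probe for an Ensembl transcript, with levels of 13.92 to 14.17. The probe for its RefSeq transcript had levels of 6.83 to 6.96 and a mean ratio of −0.0053. The brightest Cacng2 probe had levels of 9.25 to 9.94. Its other probe, at 5.94 to 6.12, was not well above background on any array. Cacng5 levels were 9.12, 9.32, 9.16 and 9.27 in the Sox2-Tbx2LOF pools and 9.23, 9.09, 9.23 and 8.97 in the control pools. The Sox2-Tbx2LOF pool was lower on arrays 1 and 3 and higher on arrays 2 and 4 (mean 0.09 ± 0.05, SE, n = 4; adjusted p = 0.886 from limma). Cacng1 and Cacng3 were not well above background on any array. Their levels over the 8 pools were between 6.12 and 6.27 and between 6.08 and 6.17. Cacng8 was well above background on 1 array in either genotype and was not tested.

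**Figure D2:**
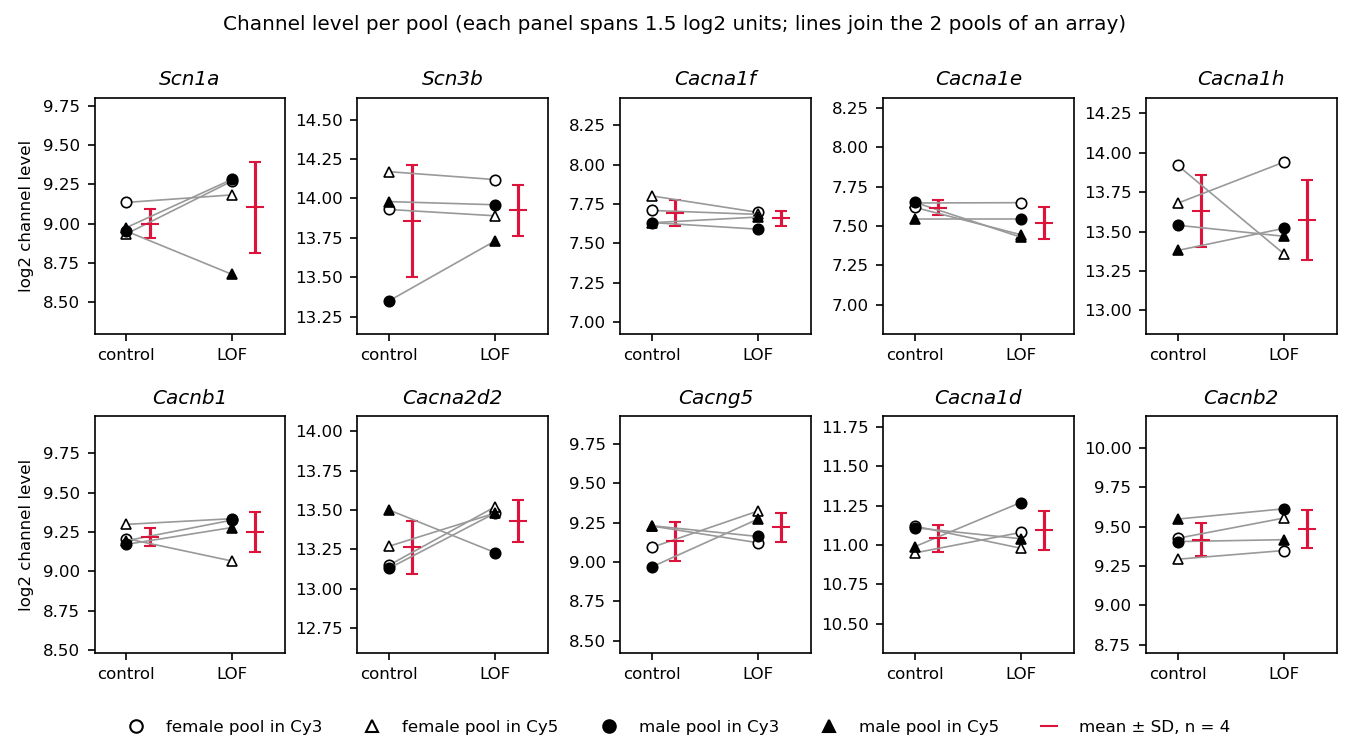
Log2 channel level (y axis) in the 4 control and the 4 Sox2-Tbx2LOF (LOF) pools for the member with the largest difference in each subunit class and for Cacna1d and Cacnb2. Lines join the pools of an array, circles mark Cy3 and triangles Cy5, open symbols female and filled symbols male pools, and red bars the mean ± SD (n = 4). In every panel the control and Sox2-Tbx2LOF pools overlap, and heights differ between probes and are not comparable between panels.

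Much of the spread between arrays went with the dye. Of the 28 members, 16 had both ratios of arrays 1 and 3 on one side of both ratios of arrays 2 and 4, where 56.1% of all tested genes did. Across the 28 members, Pearson's r between arrays of the same orientation was 0.62 (arrays 1 and 3) and 0.52 (arrays 2 and 4). Between arrays of swapped orientation it ran from −0.80 to −0.54. Over all 21173 tested genes the same values were 0.47 and 0.50, and −0.28 to −0.08. These are descriptions over genes, which share their arrays. The dye term of the fit passed an adjusted p of 0.05 for 3 of 28 members, where it did for 4.22% of all tested genes. They were Scn8a, Cacng2 and Cacna2d1, named after their values were seen.

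Scn8a had ratios of −0.63, 0.59, −0.50 and 0.60 on arrays 1 to 4. In levels, the 4 Sox2-Tbx2LOF pools had 10.95, 11.44, 10.80 and 11.53, and the controls 11.58, 10.86, 11.29 and 10.92. Whichever pool was in Cy5 was the brighter one on all 4 arrays, and the balanced mean was 0.02 ± 0.05 (SE, n = 4). The second tested Scn8a probe, printed above, had 0.10 on the arrays with Sox2-Tbx2LOF in Cy3 and 0.00 on those with it in Cy5. Its levels were only 6.86 to 7.04, so the 2 probes were not compared at like brightness. Cacng2 had 0.31, −0.66, 0.36 and −0.15, so that the Cy3 pool was the brighter one on each array. For Cacna2d1, the ratios were 0.29, −0.16, 0.41 and −0.23, again with the Cy3 pool brighter each time. Its other tested probe had 0.27 on arrays 1 and 3 and −0.08 on arrays 2 and 4.

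The Scn8a probe with the dye split holds an alternating run of G and T of 16 bases. Over the whole array, 73 tested probes, or 0.260%, hold such a run of at least 16 bases on the probe's own strand, and the dye term passed an adjusted p of 0.05 for 73 of 73. Their median difference between the Cy5 and the Cy3 arrays was 1.33 on the log2 scale. With a run of 12 to 15 bases the dye term passed for 28 of 35 probes, with 8 to 11 bases for 45 of 162, and with 7 or fewer for 898 of 27834. The brightest Cacna2d2 probe holds a run of 8 bases and had a mean ratio of −0.03 on the Cy3 arrays and 0.36 on the Cy5 arrays (dye term adjusted p = 0.164). No probe with a run of 8 bases or more was called between genotypes, where 70 of all 28104 tested probes were. With so few such probes, a count of 0 is near that share. The median ratio of the 73 was 0.03. Run lengths were looked at after the Scn8a values were seen, and the cause of the Scn8a dye split was not tested.

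**Figure D3:**
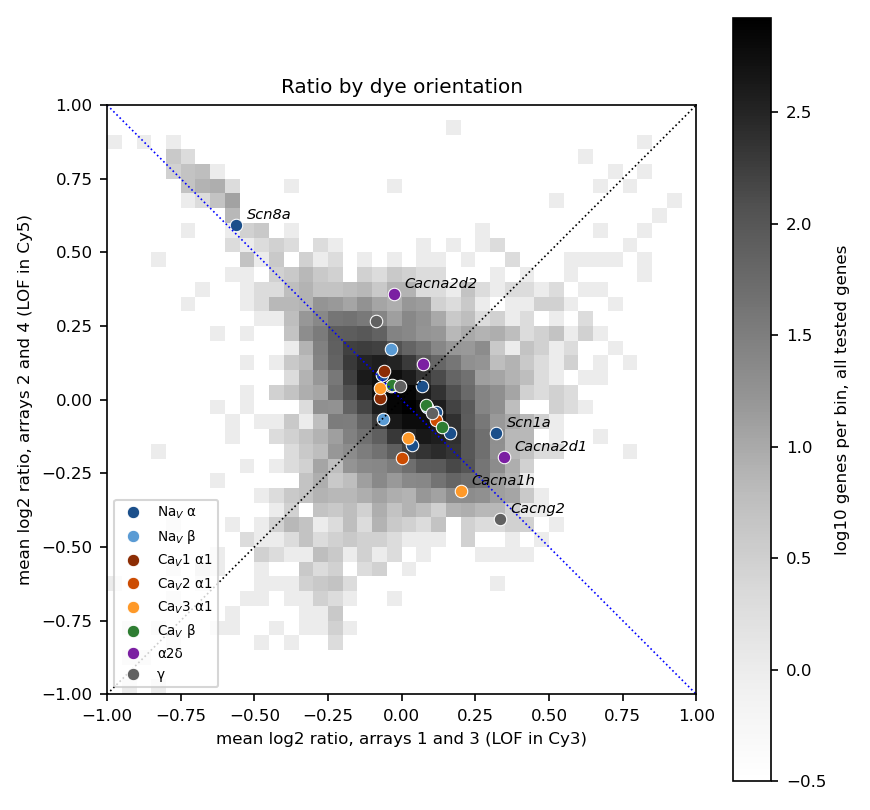
Mean log2 ratio of Sox2-Tbx2LOF over control on arrays 1 and 3 (x axis, Sox2-Tbx2LOF in Cy3) against arrays 2 and 4 (y axis, in Cy5) for the 28 tested members in colour, over the number of all tested genes per bin in grey (log10). A genotype difference lies on the black diagonal and a dye difference on the blue one, where Scn8a lies at −0.56 and 0.59 and Cacng2 at 0.33 and −0.41.

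Mean ratios of the tested probes of a gene lay close together, though some of these probes were dim, such as a Cacna1c probe with levels of 6.49 to 6.70. The 35 genes had 56 probes, of which 44 were tested, and 12 genes had more than 1 tested probe. Mean ratios over the 44 probes ran from −0.10 to 0.17, with none at an unadjusted p under 0.05 (0 of 44, against 7.12% of all tested probes). The widest gap between mean ratios of probes of a gene was 0.13 on the log2 scale, for Scn3a. Single arrays could differ more. For Cacna2d2 the brightest probe had 0.21, 0.37, −0.27 and 0.35 on arrays 1 to 4, and the other 0.38, −0.25, −0.0050 and 0.05.

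A sex difference of the effect was asked for with a sex-by-genotype term, in which 2 female arrays stand against 2 male arrays. No member passed (0 of 28 at an adjusted p of 0.05, and 0 of 28 at an unadjusted p under 0.05), where 0 of 21173 and 1.93% of all tested genes did. For Cacna2d2 the mean ratio was 0.29 on the female and 0.04 on the male arrays, and for Scn3b −0.05 and 0.18, each with an adjusted p of 1.00 for the difference from limma.

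The genes of 30 proteins that bind, anchor or regulate these channels were set beside them, and 28 were tested. Cabp2, a calcium-binding protein that slows the inactivation of the IHC calcium channel, was the only one called (1 of 28, against 0.274% of all tested genes). Its levels were 7.48, 7.66, 7.79 and 7.70 in the Sox2-Tbx2LOF pools and 8.52, 8.87, 8.94 and 8.99 in the control pools, without overlap. The mean ratio was −1.17 ± 0.05 (SE, n = 4; adjusted p = 1.0e-05 from limma). The study had picked Cabp2 from these arrays, so that its direction is not independent evidence.

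None of the other 27 partners passed an adjusted p of 0.05. Unc80, part of the sodium leak channel complex, had 0.23 (adjusted p = 0.187 from limma) by its brightest probe and 0.06 by its other tested probe. The pore of that complex, Nalcn, had 0.03. The adhesion proteins Nrcam and Cntn1, which gather sodium channels at axons, had −0.13 and 0.13. Fgf12, which binds the tail of sodium channels, had −0.13, and Stac2, an L-type channel regulator, −0.10. Rem2, a small GTPase that inhibits calcium channels, had −0.09. Rims1 and Rims2, which tether calcium channels at release sites, had 0.04 and 0.05. Rimbp2 was not well above background on any array and Cabp4 on 2 in either genotype, so both were left untested. Over the 28 tested partners the median ratio was 0.03. The dye term passed an adjusted p of 0.05 for 2 of the 28, Cntn1 and Stac2, against 4.22% of all tested genes.

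Markers of the cells in the tissue give the setting for these levels. All 12 hair cell and all 9 supporting cell markers were well above background on 4 of 4 arrays in both genotypes. So were 12 of 12 neuron markers, although the spiral ganglia had been removed at dissection, 6 of 6 glia, 6 of 6 mesenchyme and 8 of 9 skeletal muscle markers, Ckm being at background. The log2 of the summed brightness of the neuron markers, in which the brightest weigh most, was 17.48 to 17.50 in the Sox2-Tbx2LOF pools. In the control pools it was 17.42 to 17.48. The same measure for the muscle markers was 11.11 to 11.18 in the Sox2-Tbx2LOF pools and 10.98 to 11.18 in the control pools. Median ratios of the lists ran from −0.03 (skeletal muscle) to 0.10 (mesenchyme), and no neuron, glia, muscle or mesenchyme marker passed an adjusted p of 0.05. Which of these cells the channel transcripts came from was not tested. Tbx2 itself was lower in Sox2-Tbx2LOF on 4 of 4 arrays (mean ratio −0.15, adjusted p = 0.313 from limma), by a probe that was not placed relative to the deleted part of the gene. Sox2, whose locus carries the CreERT2, had 0.23 (adjusted p = 0.0872).

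**Figure D4:**
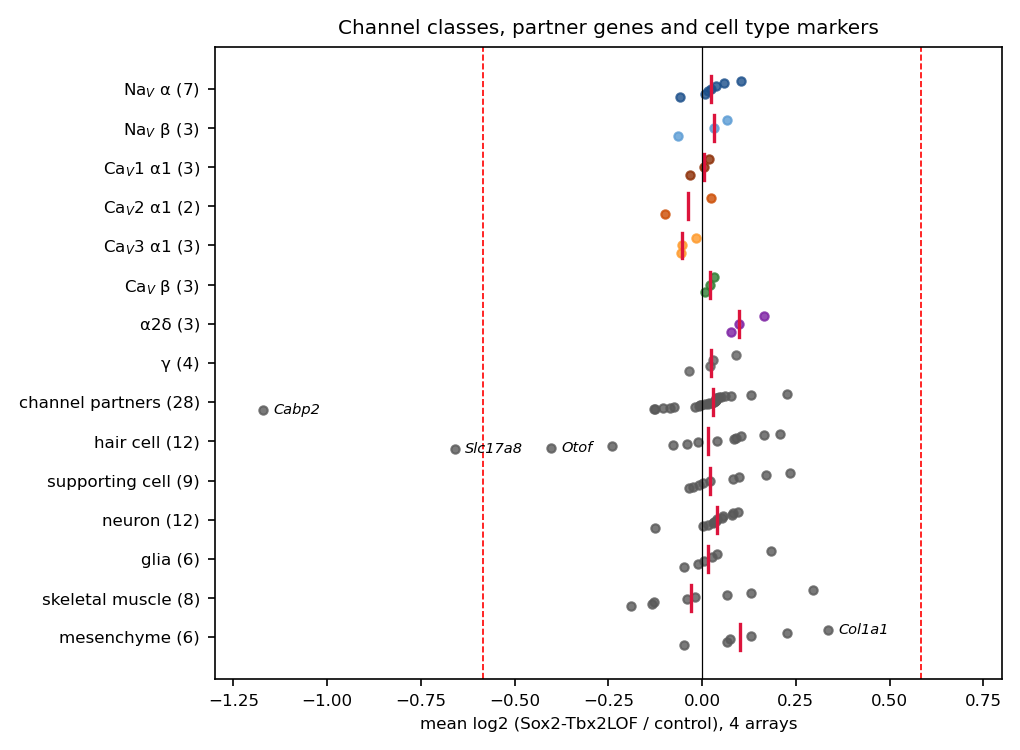
Mean log2 ratio of Sox2-Tbx2LOF over control on 4 arrays (x axis) for each tested gene of the 8 channel subunit classes, the channel partners and the cell type marker lists (y axis, number of tested genes in parentheses), with the median of each list as a red line and 1.5-fold as dashed lines. All 28 channel genes lie between −0.10 and 0.17, and Cabp2 lies apart at −1.17.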

How the data were processed

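Total RNA of 8 pools was labelled and hybridised to 4 two-colour Agilent arrays on 1 slide, in 1 scan. The deposited scanner files of the authors (Agilent Feature Extraction 10.7.3.1, annotation mm9) hold spot intensity and local background in both channels. Spot flags and a log10 value of Cy5 over Cy3, made by the scanner software from background-subtracted, dye-normalized signals, were deposited with them. A deposited value table of the authors holds a score per array, whose processing is not given in the sources used here. It was read as a signed fold change, since its columns then had a median of 0 (log2) and correlated with the scanner ratios at r = 0.937 to 0.953, and results from it rest on that reading. Here, mean intensity was corrected with normexp (offset 50) against the median local background, normalized by loess within arrays and averaged over spots of a probe (limma 3.58.1, R 4.3.3). Channel levels come from the same fit after quantile scaling of average brightness. A probe was tested when over 0.5 of its spots were well above background on at least 3 of 4 arrays in either genotype, which kept 28104 of 39429 probes. A gene is its brightest probe. Ratios were fitted in limma with a term for dye, and p-values were adjusted by Benjamini-Hochberg over all tested probes. Sharing an array pairs the pools, and deviations of paired pools from their group means correlated at 0.32, −0.33, 0.088 and 0.21.

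Median spot intensity was 315 to 412 per channel, no spot was saturated, and the number of arrays limits precision. Pools were called independent by the study. All members are accounted for by name. Values in every pool are given for members with an unadjusted p under 0.05, for the largest difference in each subunit class, and for Cacna1d and Cacnb2. Partners are named at an adjusted p under 0.05, with at most 6 others by size, and Nalcn, Rims1 and Rims2 were added for their role. Members and lists were chosen with earlier results of these data known. Fits were tested on simulated data. SAM used all 70 regroupings of the pools. Python was used for summaries and figures.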

Additional observations from a re-analysis of the deposited data

Results flagged for a closer look

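In 50 sets of 4 values, the ratios of the 28 tested members, Cacna1d and Cacnb2 and, for the 8 members with the largest difference in their class and these 2 genes, the levels in each genotype, a single value stood far from the other 3 in 3 sets, where chance gives about 1 in 20. The Scn3b ratio of array 4 was 0.38, against −0.05 to −0.02 on the other arrays, and the control pool of that array had the lowest Scn3b level (13.35). The Scn1a level of the Sox2-Tbx2LOF pool of array 4 was 8.68, against 9.18 to 9.28 in the other Sox2-Tbx2LOF pools. The Cacna2d2 level of the Sox2-Tbx2LOF pool of array 3 was 13.23, against 13.48 to 13.52. No cause was tested.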

How the results depend on the processing

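No member was called in any of the settings tried: the scanner's own ratio, a normexp offset of 10, median centring, no filter or a stricter filter on dim probes, flagged spots kept, no dye term, SAM, the deposited value table, the mean of all probes of a gene, no minimum fold, an unadjusted p under 0.05, or any array left out. Without the replicate block, that is with the pairing of pools on an array ignored, 0 members were called; their median of 0.02 cannot move in this balanced design. Leaving out single arrays moved that median between −0.0033 and 0.05 and the count of called partners not at all (1 to 1). The deposited value table called 0 partners, Cabp2 included, and 1 probe in all. No slide block could be fitted, since there was 1 slide. Because the ratios are small, their sign is not stable: over the 10 settings that can move a mean ratio it changed in 30 of 280 values and in 20 of 28 members. With an array left out it changed in 24 of 112, and the ratio ran from −0.04 to 0.17 for Scn3b, from −0.18 to 0.07 for Cacna1h and from −0.03 to 0.10 for Cacnb1. The 4 arrays limit what can be seen, and intervals are no narrower than 0.21 on the log2 scale.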
